A study of Mus musculus with 9 samples.

Results

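Collagens are the structural proteins of the extracellular matrix, and the genes described here are those that encode their chains. All protein-coding genes of the deposited count table with a symbol made of Col, a number, the letter a and a number were taken, which gave 44 collagen chain genes of the 56748 genes in the table, 21970 of them protein-coding. The table holds bulk RNA sequencing of liver from 9 mice of the C57BL/6 genotype (C57BL/6J in the study's methods, bought at 7 to 8 weeks of age), 3 of each label (Control, DSS, Indirubin). Dextran sulfate sodium (DSS), a polymer that injures the colon, was given at 1.8% in the drinking water in 3 cycles of 1 week, each with a week of rest after it. Mice of the DSS group drank DSS and had 200 µl of sterile water by mouth daily. Mice of the Indirubin group drank DSS and had indirubin, a poorly soluble plant bisindole, at 1 g/kg/day in the same volume. Control mice had the same daily water, and their label names water alone, while the series text describes colitis before it describes the groups. Whether Control mice also drank DSS cannot be settled from these sources. No allele differed between the groups, and the sources give no sex.

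A collagen molecule is a triple helix of chains, and its class depends on what the helices build. Fibrillar collagens form the banded fibers of scar and stroma, basement membrane collagens form sheets under epithelium and endothelium, beaded filament collagens form thin filaments between them, and fibril-associated collagens with interrupted triple helices (FACIT) sit on the fibers. Multiplexins belong to the basement membrane zone, and in liver the fibrillar chains are made mainly by hepatic stellate cells and portal fibroblasts, which is why they serve as readouts of fibrosis.

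Total counts lay between 6514863 and 7944684 per library, and mitochondrial transcripts took 71.6% to 91.3% of them, which left 569044 to 2132208 counts of nuclear genes. The label liver was matched by the hepatocyte list (Alb, Apoa1, Ttr, Apoc3, Serpina1c and Fgb), which summed to between 7542 and 18451 counts per 1000000 (CPM) in every library, after scaling by the trimmed mean of M-values (TMM) over all 9. Indirubin-2 and Indirubin-3 stood apart through genes of the digestive pancreas: 13 acinar markers summed to 1482 and 1430 CPM in these libraries, against 9.73 in Indirubin-1, 8.81 to 19.5 in Control and 0 to 3.08 in DSS. Many Indirubin values are therefore also given with Indirubin-1 as the only Indirubin library.

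The 44 genes together held 12273 counts, so the collagen readout was shallow. Counts were present for 39 genes, in all 9 libraries for 12, and 15 passed the filter on low counts in each comparison. No count was found for Col2a1, Col24a1, Col9a1, Col9a2 and Col4a6. Multiplexin genes held 44.1% of the collagen counts, fibrillar genes 20.8%, basement membrane genes 1841 counts, FACIT genes 11.8% and beaded filament genes 6.14%. A single gene led: Col18a1, the multiplexin chain from which endostatin is cut and which hepatocytes make, had 5290 counts. On the scale of CPM per kilobase of gene length, Col18a1 averaged 11.1 over the 9 libraries, followed by Col14a1 at 3.04, Col4a1 at 2.32, Col3a1 at 1.44 and Col4a2 at 1.42. The order differed by group: in Indirubin, Col4a1 (2.86) stood above Col14a1 (2.52) and Col4a2 (2.02) above Col3a1 (1.14) in mean. The type I chains, the bulk of a scar, stood lower on this scale, at 0.680 for Col1a1 and 0.545 for Col1a2.

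As a share of nuclear counts, collagen was lowest in the DSS livers. In Control-1, Control-2 and Control-3 there were 19.4, 13.5 and 14.97 collagen counts per 10000 nuclear counts, in the DSS libraries 8.58, 7.58 and 7.39, and in the Indirubin libraries 15.7, 10.3 and 13.5. Each DSS library thus lay below every library of the other groups, and Control and Indirubin overlapped. Means were 16.0 ± 3.07 in Control, 7.85 ± 0.642 in DSS and 13.2 ± 2.72 in Indirubin (SD, n = 3). Exact 95% binomial intervals of the single libraries, which cover counting error only, ran from 6.99 to 9.15 across DSS and from 9.81 to 20.4 across the other groups. Without Col18a1 the means were 9.82 ± 2.00, 3.90 ± 0.879 and 7.91 ± 1.53. In bulk tissue, fewer cells of a type and less RNA per cell cannot be told apart.

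The summed markers of stellate cells followed the same order of group means. The sum of 11 stellate cell markers was 156 to 230 CPM in Control, 68.1 to 83.6 in DSS and 100 to 171 in Indirubin. None of the 11 was at 0 in all libraries, although Lrat, the retinol-esterifying enzyme that defines these cells, had no count in DSS-2. A few genes weighed heavily in the sum. Ecm1 had 705, 465 and 330 counts in Control, 238, 266 and 340 in DSS and 240, 988 and 541 in Indirubin. Rgs5 had 105, 79 and 77, then 127, 82 and 183, then 92, 702 and 466 in the same order. Des had 509 counts in Indirubin-3 and at most 54 in any other library. In the fit of DSS against Control, 8 of 10 tested stellate markers were below 0, and Hand2 (1.19) and Des (0.12) were above. Their part in the collagen result was not tested. Mitochondrial shares were 87.5% to 91.3% in Control, 72.4% to 87.7% in DSS and 71.6% to 89.5% in Indirubin. The part of these shares in the collagen values was not tested.

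**Figure D1:**
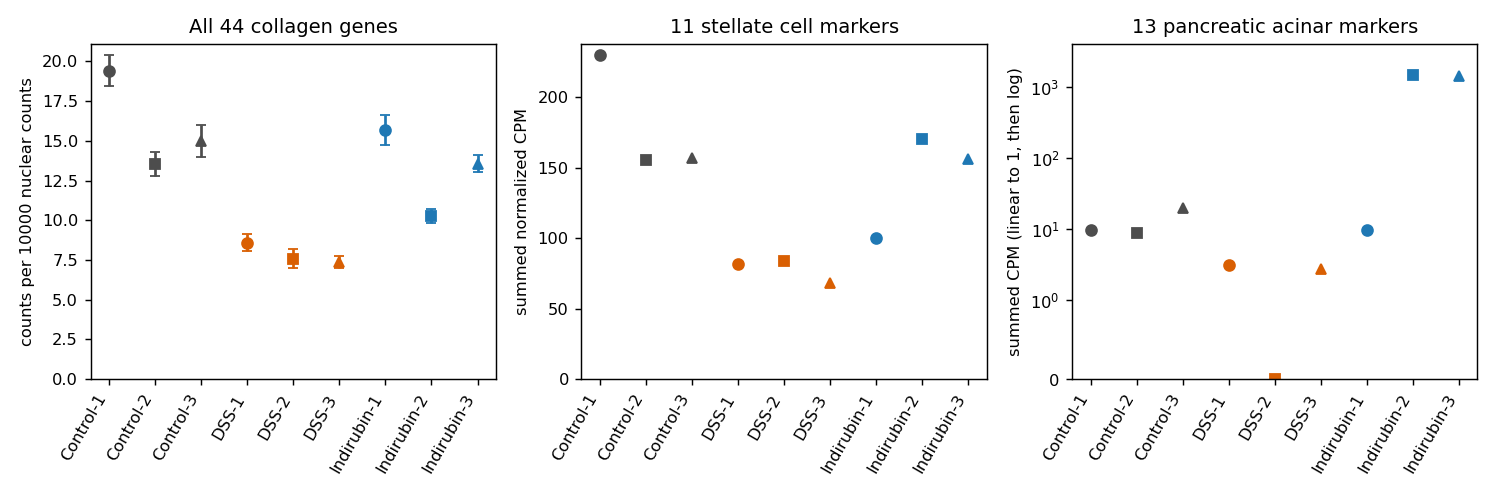
Left, counts of all 44 collagen genes per 10000 nuclear counts in each library with exact 95% binomial intervals; middle, summed TMM-normalized CPM of 11 stellate cell markers; right, the same for 13 pancreatic acinar markers, on an axis that is linear to 1 and logarithmic above. DSS libraries are lowest for collagen (7.39 to 8.58) and for the stellate sum, in which a few genes weigh heavily. Acinar markers stand apart in Indirubin-2 and Indirubin-3 (1482 and 1430).

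By class, the fibrillar sum separated all the groups. Its TMM-normalized CPM was 65.8, 62.2 and 56.3 in Control, 25.4, 20.4 and 21.8 in DSS, and 31.8, 32.4 and 42.7 in Indirubin. Every Indirubin library thus lay above every DSS library and below every Control library. Single fibrillar genes did not all follow this order. Col3a1 and Col27a1 averaged 20.6 and 11.8 CPM in Control, 10.7 and 3.01 in DSS and 11.1 and 1.79 in Indirubin. For Col1a2 and Col1a1 the means were 10.1 and 5.36, 1.83 and 1.86, and 8.38 and 6.16. For basement membrane genes the DSS libraries (10.2, 16.8 and 10.2) lay below both Control (45.1, 21.8 and 38.5) and Indirubin (42.8, 29.0 and 38.6), which overlapped. Beaded filament sums averaged 12.2 ± 4.20 in Control, 5.31 ± 1.56 in DSS and 14.98 ± 7.30 in Indirubin, and every DSS library (at most 6.91) lay below every other (at least 8.17). FACIT sums averaged 34.1 ± 14.4, 14.1 ± 2.18 and 20.8 ± 9.91, and multiplexin sums 98.9 ± 25.5, 63.5 ± 23.1 and 77.2 ± 14.5, in the same order of groups. For FACIT and multiplexin genes DSS had the lowest mean, and the libraries of DSS overlapped those of Indirubin for FACIT and those of both other groups for multiplexins.

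**Figure D2:**
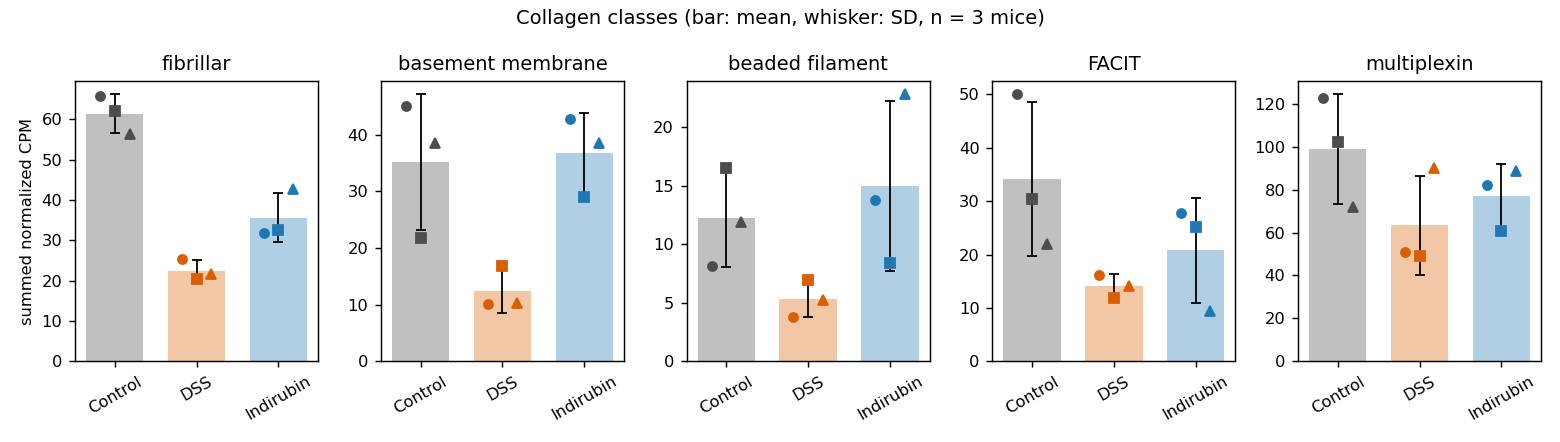
Summed TMM-normalized CPM of the collagen classes with tested genes; bars are means, whiskers SD and points the 3 mice of each group. The fibrillar and basement membrane sums of DSS (means of 22.5 and 12.4) lie below every library of the other groups, whereas multiplexin sums overlap.

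For the tests, each comparison was fitted with edgeR's quasi-likelihood test on all genes that passed the filter, with Benjamini-Hochberg adjustment over all of them. Log2 fold changes are given ± their standard error. The labels give 9 separate samples, so p-values measure the spread between these samples. In the comparison of DSS with Control, which addresses what the colitis model did to the liver if Control mice had no DSS, no collagen gene passed an adjusted p of 0.05, a threshold that 0.708% of the 7482 genes tested passed. At an unadjusted p under 0.05, 6 of the 15 tested collagen genes were lower in DSS and 0 higher, where 4.05% of all genes were lower and 3.48% higher. With libraries scaled by size only, 2 were lower and the median of the 15 was -0.73, beside 0.70 for all genes. In that fit 916 of the 7482 genes had an unadjusted p under 0.05, in either direction. By the Wald test of DESeq2, 2 collagen genes (Col1a2 and Col27a1) had an adjusted p under 0.05, beside 1.91% of all genes. All 15 had a log2 fold change below 0, whereas 50.6% of all genes were above 0. Their median was -1.36, beside 0.01 for all genes. Groups did not overlap for 7 of the 15, all lower in DSS, beside 8.21% of all genes lower and 7.91% higher. These counts describe only genes that passed the filter, which keeps a gene that is high in a single group.

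**Figure D3:**
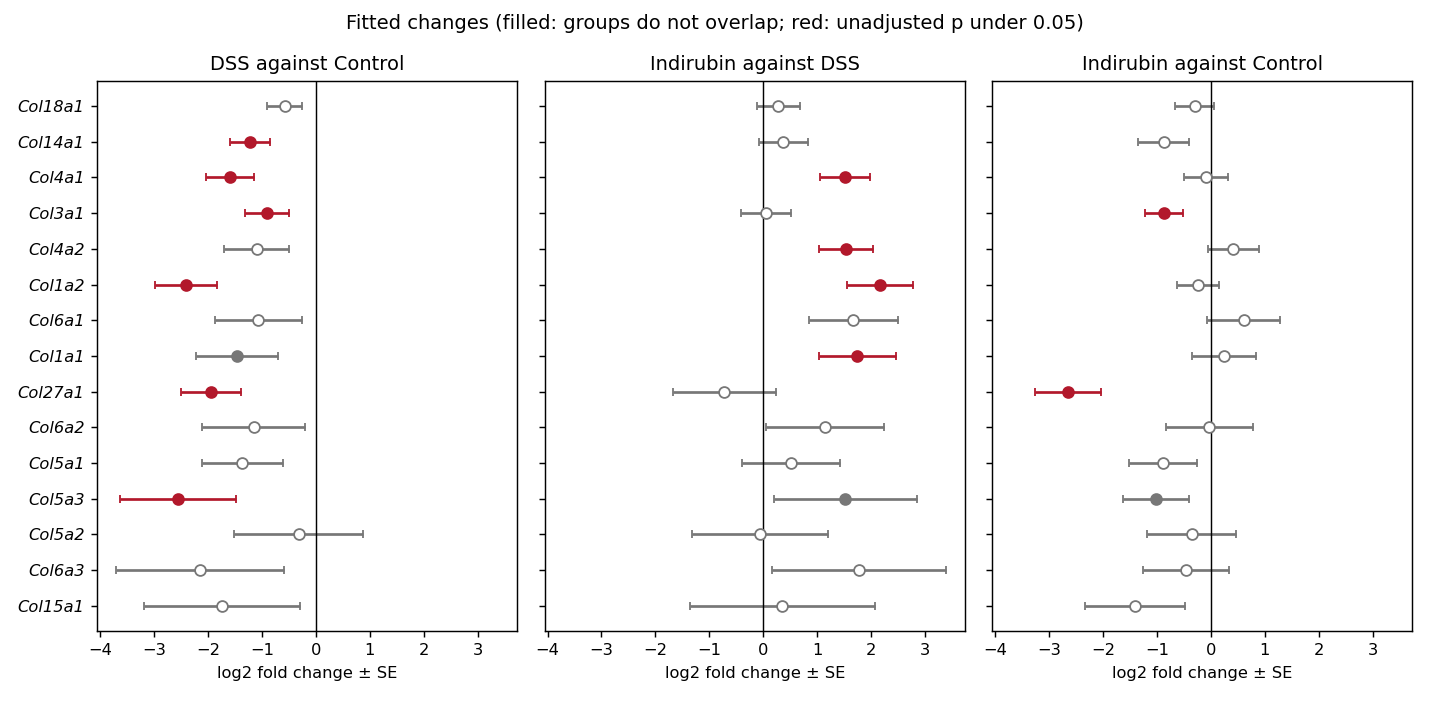
Log2 fold changes (± SE) of the 15 tested collagen genes in the 3 comparisons, ordered by total count; filled points mark groups without overlap and red an unadjusted p under 0.05. All 15 lie left of 0 for DSS against Control, 13 lie right of 0 for Indirubin against DSS, and 12 lie left of 0 for Indirubin against Control.

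In the comparison of Indirubin with DSS, which addresses the effect of indirubin in colitis, 0 of the 9117 genes tested had an adjusted p under 0.05 (0%). Unadjusted, 4 of the 15 collagen genes were higher at a p under 0.05 and 0 lower, where 4.45% of all genes were higher and 3.22% lower. The DESeq2 Wald test called 0 collagen genes, beside 0.877% of all genes. Of the 15, 13 were above 0 (56.8% of all genes), with a median of 1.14 beside 0.15 for all genes, and 5 were higher without overlap and 0 lower, beside 10.5% and 5.9% of all genes. That median was 1.79 when libraries were scaled by size only (0.43 for all genes) and 0.57 over 17 tested collagen genes without mitochondrial genes. Leaving out Indirubin-1, DSS-3, DSS-1 or Indirubin-3 gave medians of 0.65, 0.69, 0.71 and 0.74, over 18, 17, 18 and 16 tested collagen genes. With Indirubin-1 as the only Indirubin library, assumed to vary like the DSS libraries, the median was 1.06 over 19 tested collagen genes. That of all genes was -0.01.

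Between Indirubin and Control no collagen gene passed the adjusted threshold, which 0.236% of the 8059 genes tested passed. At an unadjusted p under 0.05, 2 were lower (6.38% of all genes) and 0 higher (7.45%), and the DESeq2 Wald test called 1, Col27a1, beside 3.92% of all genes. Without Control-1, Control-2, Indirubin-2 or Indirubin-3 1 gene was lower. In those fits 845 to 1288 of 8719 to 9990 genes had an unadjusted p under 0.05, in either direction. Without Indirubin-1 1 gene passed the adjusted threshold, beside 465 of the 9721 genes tested. There were 12 genes below 0 and 3 above (55.5% of all genes were above), with a median of -0.36 beside 0.13 for all genes, and 3 were lower without overlap and 0 higher, beside 9.07% and 12.7% of all genes. When libraries were scaled by size only, the median of all genes was 1.10 and that of the collagen genes 0.63, so that relative to all genes the difference was -0.47, beside -0.48 with TMM. The 3 comparisons share libraries, since DSS enters 2 of them and so do the other groups, and their values are set side by side without a test across them. With 3 mice against 3, an exact two-sided permutation test of a single value cannot go below 0.1.

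Type I collagen is the main fibril of scar, and its chains had the largest fitted differences of the fibrillar genes between Indirubin and DSS. Col1a2 (ENSMUSG00000029661, chromosome 6, 4504814 to 4541544 on the plus strand of GRCm39) had 51, 55 and 44 counts in Control, 12, 6 and 33 in DSS and 39, 115 and 99 in Indirubin. Scaled to CPM these were 9.92, 9.69 and 10.7 in Control, 1.42, 1.06 and 3.02 in DSS, and 7.16, 9.42 and 8.55 in Indirubin. Every DSS library was well below all others. The log2 fold change was -2.41 ± 0.58 for DSS against Control (edgeR quasi-likelihood, Benjamini-Hochberg adjusted p = 0.0983), 2.16 ± 0.61 for Indirubin against DSS (adjusted p = 0.433) and -0.24 ± 0.39 for Indirubin against Control. With Indirubin-1 alone, the library with few acinar counts, the value against DSS was 1.94 and missed the unadjusted threshold.

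Its partner chain Col1a1 (ENSMUSG00000001506, chromosome 11, 94827050 to 94843868) had 15, 47 and 20 counts in Control, 17, 14 and 12 in DSS and 21, 50 and 122 in Indirubin. DSS was again the lowest group without overlap, at 1.86 ± 0.704 CPM beside 5.36 ± 2.71 in Control and 6.16 ± 3.79 in Indirubin. The fitted changes were -1.47 ± 0.76 and, for Indirubin against DSS, 1.74 ± 0.71 (unadjusted p = 0.0311 from edgeR's quasi-likelihood test, adjusted p = 0.603). Indirubin-3 was the high library, and without it the latter value was 1.10, and with Indirubin-1 alone 1.06, short of the unadjusted threshold. The unadjusted threshold was also missed without DSS-1 (1.69) or DSS-3 (1.45). Per length, Col1a2 reads per Col1a1 read ranged from 0.226 to 1.80 over the 9 libraries, with no group apart from the others.

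Col3a1, the chain of type III collagen that accompanies type I in the stroma, had 116, 117 and 77 counts in Control, 138, 36 and 101 in DSS and 75, 125 and 109 in Indirubin. In CPM, Control lay highest (20.6 ± 1.91), and DSS (10.7 ± 5.14) and Indirubin (11.1 ± 2.31) were alike in mean. Neither group overlapped Control: the log2 fold change was -0.90 ± 0.41 for DSS and -0.87 ± 0.35 for Indirubin (adjusted p = 0.647 and 0.296 by edgeR). Leaving out any library but DSS-1 took the DSS value over an unadjusted p of 0.05, as leaving out Control-1, Control-2, Indirubin-2 or Indirubin-3 did for Indirubin. Against DSS, Indirubin differed by 0.06 ± 0.46, an estimate whose sign turned when single libraries were left out, so here no higher level with indirubin was detectable at this depth. With Indirubin-1 alone the values were 0.37 against DSS and -0.60 against Control.

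A different course was seen for Col27a1, a fibrillar chain best known from cartilage. Its counts were 73, 66 and 39 in Control, 15, 29 and 23 in DSS, and 5, 11 and 41 in Indirubin. In CPM it was 11.8 ± 2.36 in Control, 3.01 ± 1.85 in DSS and 1.79 ± 1.52 in Indirubin. DSS and Indirubin both lay below Control without overlap. The log2 fold change against Control was -1.94 ± 0.55 for DSS and -2.65 ± 0.61 for Indirubin (adjusted p = 0.218 and 0.0907 by edgeR's quasi-likelihood test). Indirubin stood at -0.72 ± 0.96 against DSS. Col27a1 was 1 of 2 tested collagen genes with a value below 0 in that comparison, the other being Col5a2, and its value for Indirubin against Control was -1.65 with library size alone. With Indirubin-1 alone the values were -3.66 against Control and -1.68 against DSS.

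Type V chains, which start and limit the growth of type I fibrils, were read from few counts. Col5a3 had 26, 21 and 27 counts in Control, 0, 5 and 18 in DSS and 10, 37 and 29 in Indirubin, and its 3 groups did not overlap: 5.11 ± 1.44, 0.844 ± 0.824 and 2.46 ± 0.599 CPM. The changes were -2.56 ± 1.08 for DSS against Control (adjusted p = 0.591 by edgeR, and over an unadjusted p of 0.05 without any single Control library), 1.52 ± 1.33 for Indirubin against DSS and -1.01 ± 0.61 for Indirubin against Control. Col5a1 had 36, 35 and 15 counts in Control, 32, 6 and 15 in DSS and 18, 16 and 50 in Indirubin, and its groups overlapped in every comparison. Col5a2 had 21, 12 and 9 counts, then 0, 19 and 36, then 4, 27 and 39 in the same order, and overlapped likewise. Other fibrillar genes had little: Col11a1 had 16 counts, 15 of them in Indirubin-2, and Col11a2 had 5.

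**Figure D4:**
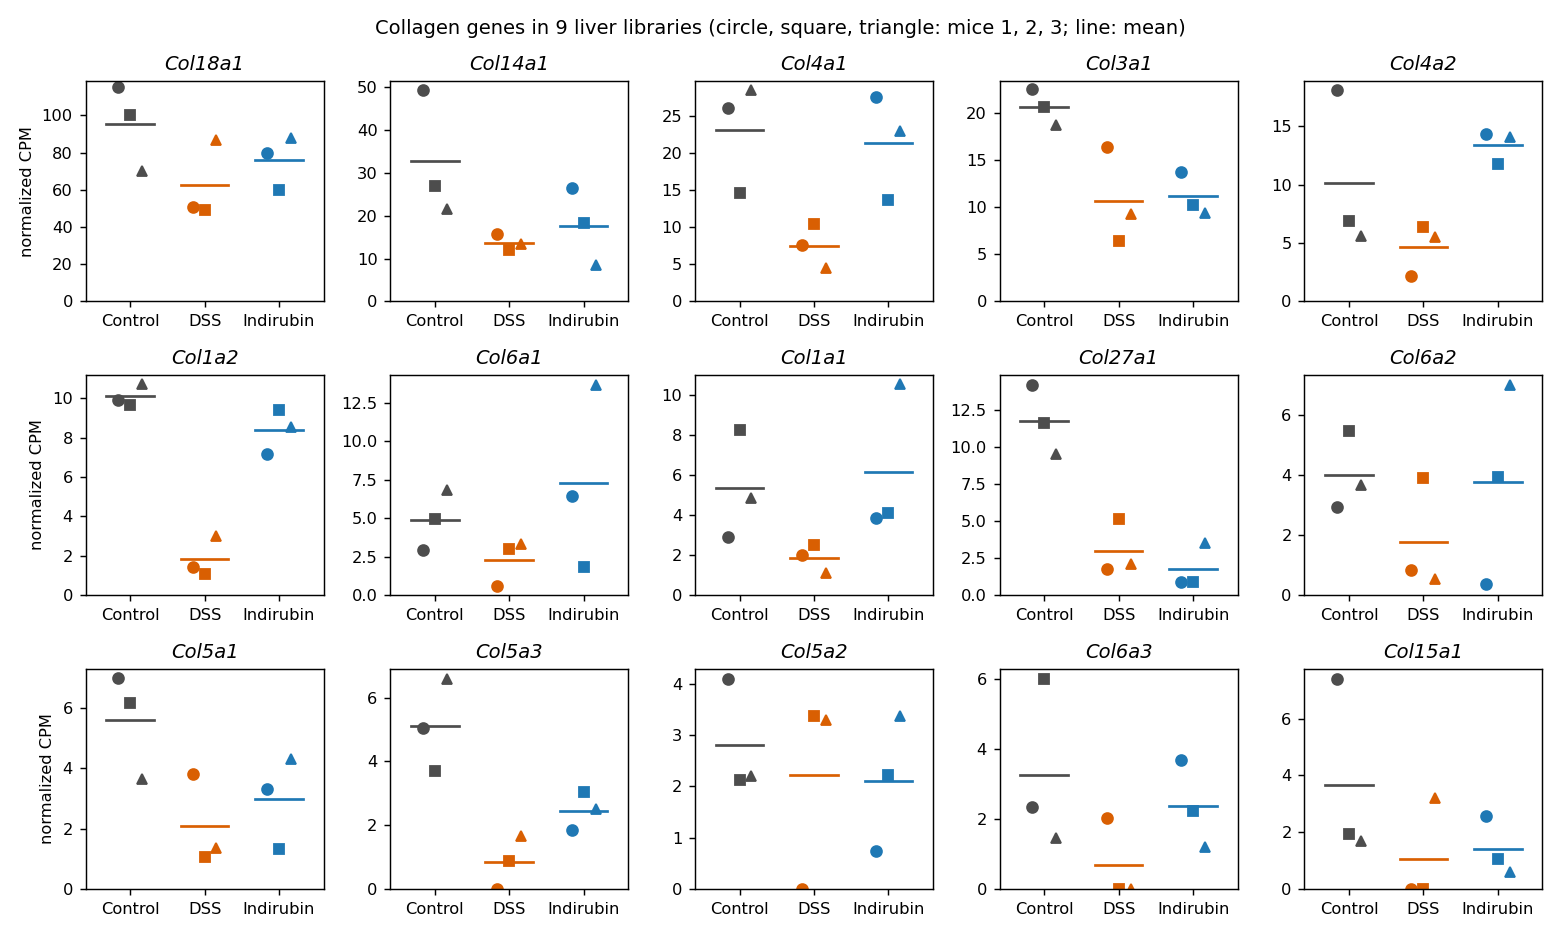
TMM-normalized CPM of the 15 tested collagen genes in each library, with a line at the group mean. Circles, squares and triangles are mice 1, 2 and 3, numbers that the labels do not pair across groups. Col1a2 and Col4a1 show the DSS libraries apart from the others (means of 1.83 and 7.51 CPM), and Col27a1 shows both DSS and Indirubin below Control.

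Col4a1 and Col4a2 encode the chains of the common type IV collagen of basement membranes, including the space under the sinusoidal endothelium, and are transcribed away from each other from neighbouring start sites. In the deposited GRCm39 coordinates, Col4a1 spans 11248423 to 11362826 on the minus strand of chromosome 8 and Col4a2 spans 11362805 to 11499287 on the plus strand, with 22 bases in common. Because the pair shares its promoter region, and both were higher in Indirubin than in DSS at an unadjusted p under 0.05 (not against Control), the windows from 250 bases before to 50 bases after each start are shown, together with that of Col1a2, the collagen gene with the lowest adjusted p for DSS against Control. They are RefSeq sequences of GRCm38.p6, at chr8:11312777-11313076 (minus strand), chr8:11312555-11312854 (plus strand) and chr6:4505368-4505667 (plus strand). Capitals mark the CCAAT box (letters CCAAT) and the GC box (letters GGGCGG), on either strand, so that a match on the opposite strand reads as its reverse complement.
Col4a1: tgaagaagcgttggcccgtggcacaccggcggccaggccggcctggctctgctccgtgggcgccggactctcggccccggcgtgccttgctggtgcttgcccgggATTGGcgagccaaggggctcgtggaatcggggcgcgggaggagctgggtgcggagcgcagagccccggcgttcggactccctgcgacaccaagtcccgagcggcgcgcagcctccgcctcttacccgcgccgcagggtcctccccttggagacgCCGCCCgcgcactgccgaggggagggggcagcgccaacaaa
Col4a2: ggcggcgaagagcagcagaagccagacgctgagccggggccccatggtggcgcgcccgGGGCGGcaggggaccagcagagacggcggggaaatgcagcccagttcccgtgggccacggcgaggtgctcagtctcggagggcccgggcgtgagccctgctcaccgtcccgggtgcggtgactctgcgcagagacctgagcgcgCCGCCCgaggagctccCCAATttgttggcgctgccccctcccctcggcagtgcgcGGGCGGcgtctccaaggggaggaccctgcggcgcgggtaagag
Col1a2: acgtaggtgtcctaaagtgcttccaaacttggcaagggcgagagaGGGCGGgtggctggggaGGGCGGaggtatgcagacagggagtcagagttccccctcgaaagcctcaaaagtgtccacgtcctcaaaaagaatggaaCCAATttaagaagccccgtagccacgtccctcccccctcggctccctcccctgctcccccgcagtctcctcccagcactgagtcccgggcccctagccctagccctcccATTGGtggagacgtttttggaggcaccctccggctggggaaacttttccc
The start sites of the type IV pair were 21 bases apart, and 78 bases belonged to both windows. Col4a1 held 1 CCAAT box and 1 GC box, both on the opposite strand, and Col4a2 held 1 CCAAT box and 3 GC boxes. The GC box of Col4a1, which began 9 bases after its start, and the one that began 7 bases after the Col4a2 start are the same bases of the shared stretch. In Col1a2 there were 2 CCAAT boxes, the first beginning 109 bases before the start, and 2 GC boxes. The TATA box (letters TATAAA) was in none of these windows. Each window is set by its RefSeq start, and sequence outside the windows was not searched. Over all 32851 windows of the table, 37.4% held a CCAAT box, 35.7% a GC box and 13.6% a TATA box on either strand, and of the 38 windows found for 35 collagen genes, 13, 23 and 5 did. These matches are letters, not measured binding sites.

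In counts, Col4a1 had 134, 83 and 117 in Control, 64, 59 and 49 in DSS and 150, 167 and 265 in Indirubin. As CPM the groups were 23.1 ± 7.41, 7.51 ± 2.99 and 21.4 ± 7.05, with DSS below all libraries of the other groups. The log2 fold change was -1.59 ± 0.45 for DSS against Control (edgeR adjusted p = 0.210), 1.52 ± 0.47 for Indirubin against DSS (adjusted p = 0.446) and -0.10 ± 0.41 for Indirubin against Control. With Indirubin-1 alone the value against DSS was 1.89.

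Col4a2 had 93, 39 and 23 counts in Control, 18, 36 and 60 in DSS and 78, 144 and 163 in Indirubin. Indirubin libraries were close together (14.3, 11.8 and 14.1 CPM) and above all DSS libraries (2.13, 6.38 and 5.48), while Control ran from 5.60 to 18.1 and overlapped both. Against DSS, the change with indirubin was 1.53 ± 0.50 (adjusted p = 0.478 by edgeR), 1.62 with Indirubin-1 alone and 1.06 without DSS-1, the latter values short of the unadjusted threshold. Against Control, DSS stood at -1.10 ± 0.60 (adjusted p = 0.764 by edgeR), with overlap. Whether the chains differed in their change was not tested. Col4a2 reads per Col4a1 read, per length, were 0.783, 0.530 and 0.222 in Control, 0.317, 0.688 and 1.38 in DSS and 0.586, 0.972 and 0.694 in Indirubin, so the groups overlapped.

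The other type IV chains, those of the glomerular and some epithelial membranes, were near the floor of 3 counts per library. Col4a3 had 0 counts in all Control and DSS libraries and 5, 6 and 12 in Indirubin. The share of all genes with such a pattern was not counted. With Control and DSS set to the floor, Col4a3 was at least 2.11-fold higher than DSS and at least 1.33-fold higher than Control. Its divergent neighbour Col4a4, which begins 71 bases away, had 35 counts in Indirubin-2 and 0 to 8 in the other libraries. Col4a5 had 16 counts in all and Col4a6 none.

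Among the beaded filament chains, single libraries set much of the Indirubin values. Col6a1 had 15, 28 and 28 counts in Control, 5, 17 and 36 in DSS and 35, 22 and 158 in Indirubin, where Indirubin-3 stood alone at 13.7 CPM beside 6.43 and 1.80. Its change for Indirubin against DSS was 1.66 ± 0.83 (unadjusted p = 0.0667 by edgeR's quasi-likelihood test, adjusted p = 0.702), and 0.83 without Indirubin-3. Col6a2 had 15, 31 and 15 counts in Control, 7, 22 and 6 in DSS and 2, 48 and 81 in Indirubin. With Indirubin-1 alone its value against DSS turned from 1.14 to -2.18. Col6a3 had 12, 34 and 6 counts in Control, 17, 0 and 0 in DSS and 20, 27 and 14 in Indirubin, and DSS-1 was its only DSS library above 0. All 3 genes overlapped between the groups in every comparison. Col6a4, Col6a5 and Col6a6 had 8, 28 and 17 counts in all.

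Col14a1 was the FACIT gene with nearly all counts of its class. The chain binds the surface of type I fibrils, and it had 254, 153 and 89 counts in Control, 132, 67 and 146 in DSS and 144, 223 and 97 in Indirubin. All DSS libraries (15.6, 11.9 and 13.3 CPM) lay below all Control libraries (49.4, 27.0 and 21.7), with a change of -1.22 ± 0.38 (edgeR adjusted p = 0.296). Without Control-1 this change was -0.83, which missed the unadjusted threshold. Indirubin spread from 8.38 to 26.4 CPM and overlapped both, at 0.37 ± 0.46 against DSS, a value that was -0.13 without Indirubin-1 and 0.96 with Indirubin-1 alone. Col16a1, another FACIT gene, had 51 of its 66 counts in Indirubin-2, 1 of the 2 libraries with acinar transcripts.

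Col18a1 counts were 592, 569 and 288 in Control, 430, 278 and 951 in DSS and 433, 730 and 1019 in Indirubin. DSS-3 (86.9 CPM) lay with Control and Indirubin, while DSS-1 (51.0) and DSS-2 (49.3) were the lowest of the 9. The changes were -0.58 ± 0.32 for DSS against Control, 0.28 ± 0.40 for Indirubin against DSS and -0.30 ± 0.36 for Indirubin against Control, with overlap in all. The Indirubin values were 0.35 and -0.27 with Indirubin-1 alone. Col15a1, the other multiplexin, had 38, 11 and 7 counts in Control, 0, 0 and 35 in DSS and 14, 13 and 7 in Indirubin. Of genes overlapping these 15 in the table, other than the Col4a1 and Col4a2 pair, the highest was Slc19a1, with 27 counts within the span of Col18a1.

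The 24 collagen genes with counts that did not pass the filter had between 2 and 75 counts over the 9 libraries. Col13a1, a collagen that spans the plasma membrane, was the highest of them, with 4, 5 and 2 counts in Control, 10, 6 and 4 in DSS and 1, 14 and 29 in Indirubin. Transmembrane collagens together had 4, 6 and 2 counts in Control, 27, 6 and 22 in DSS and 8, 50 and 35 in Indirubin. No fold is given for these genes other than Col4a3, since no other had a group with every library over the floor and another with none.

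**Figure D5:**
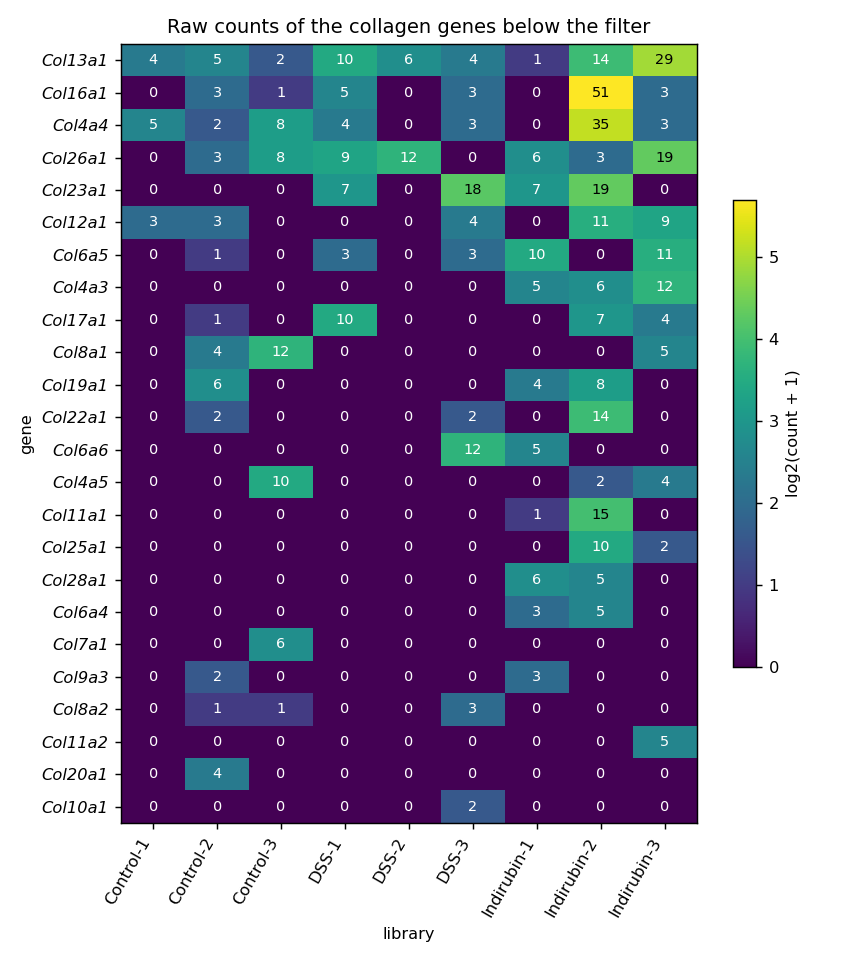
Raw counts of the 24 collagen genes with counts below the filter, by library; color is log2(count + 1) and the number in each cell is the count. The highest cells are Col16a1 (51) and Col4a4 (35), both in Indirubin-2. Of these genes only Col4a3 has counts in every Indirubin library and none elsewhere.

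Of 32 genes of enzymes and chaperones that modify, trim and crosslink collagen, 14 were tested for DSS against Control, of which 1 was lower at an unadjusted p under 0.05 (4.05% of all genes) and 0 higher. For Indirubin against DSS, 1 of 18 was higher (4.45% of all genes) and 0 lower. Their medians were -0.15 and -0.16. Between Indirubin and Control 1 of 14 was higher (Loxl1, 3.63 ± 1.41; 7.45% of all genes) and 0 lower, with a median of -0.05. Adamts2, which removes the amino propeptide of fibrillar collagens, had 41, 14 and 6 counts in Control, 3, 6 and 14 in DSS and 34, 63 and 39 in Indirubin, with changes of -2.09 ± 1.07 and 2.43 ± 0.85 (adjusted p = 0.721 and 0.500 by edgeR). The latter value was 2.77 with Indirubin-1 alone and missed the unadjusted threshold. Like Col1a2, Adamts2 was lowest in DSS without overlap in both comparisons. Pcolce, which enhances removal of the other propeptide, stood at -1.67 ± 0.74 in DSS against Control. P4hb, the abundant subunit of prolyl hydroxylase that also folds other proteins, went the other way, at 0.68 ± 0.35 in DSS against Control and -0.79 ± 0.44 in Indirubin against DSS, without overlap in either. Loxl1, a crosslinking enzyme, had 10, 22 and 18 counts in Indirubin and at most 4 in any other library.

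Genes of collagen breakdown (21 listed) had 1 gene lower at an unadjusted p under 0.05 and none higher in each comparison: 1 of 8 for DSS against Control, 1 of 7 for Indirubin against DSS and 1 of 9 for Indirubin against Control, beside 4.05%, 3.22% and 6.38% of all genes. Mmp14, the membrane-bound collagenase, was lower in Indirubin than in DSS without overlap (-1.58 ± 0.43, adjusted p = 0.433 by edgeR) and than in Control (-1.81 ± 0.53, adjusted p = 0.157). With Indirubin-1 alone these values were -2.18 and -2.47. Timp2, an inhibitor of such enzymes, was at -2.08 ± 0.70 for DSS against Control. Timp1, the inhibitor raised in fibrosis, had 1 count over the 9 libraries together, in Indirubin-2. Of 9 receptors for collagen, Itgb1, Itga1 and Lair1 were tested against DSS, and 0 had an unadjusted p under 0.05 in any comparison.

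Among 22 matrix partners, 3 of 13 tested were higher in Indirubin than in DSS at an unadjusted p under 0.05 (4.45% of all genes) and 0 lower (3.22%). Bgn, a small proteoglycan that binds fibrils, was at -1.02 ± 0.33 for DSS against Control (adjusted p = 0.357) and 0.93 ± 0.36 for Indirubin against DSS (adjusted p = 0.567 by edgeR), without overlap in both. Sparc, a collagen-binding glycoprotein, was 0.89 ± 0.37 for Indirubin against DSS, and the basement membrane linker Nid1, named after its value was seen, 1.58 ± 0.70. With Indirubin-1 alone the values against DSS were 0.70 for Bgn, 0.53 for Sparc and 0.96 for Nid1, each short of the unadjusted threshold. Of 14 tested against Control, 1 was higher in DSS (Vtn, 1.03 ± 0.41; 3.48% of all genes) and 1 lower (4.05%), and 0 differed at that threshold for Indirubin. In the list of the TGF-beta axis, the main inducer of fibrillar collagen, 3 of 9 tested were higher in Indirubin than in DSS at that threshold (4.45% of all genes), namely the receptors Tgfbr2 (1.96 ± 0.87) and Tgfbr3 (2.04 ± 0.91) and the latency protein gene Ltbp1 (2.26 ± 1.03, named after its value was seen). With Indirubin-1 alone these were 1.70, 1.72 and 1.53 and missed the threshold. Between DSS and Control 0 of 8 had such a p, and between Indirubin and Control 0 of 11.

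Cell markers give the setting of these values. For DSS against Control, 3 of 10 tested stellate markers were lower at an unadjusted p under 0.05 (4.05% of all genes) and 0 higher, led by Colec11 (-1.90 ± 0.42, edgeR adjusted p = 0.0690) and Ecm1 (-1.45 ± 0.34, adjusted p = 0.0932), with Reln, named after its value was seen, at -2.01 ± 0.60. For Indirubin against DSS, 1 of 10 was higher (4.45% of all genes) and 0 lower (3.22%), the higher one being Rgs5, a regulator of G protein signalling in pericytes (1.31 ± 0.46, adjusted p = 0.500). Rgs5 had 92, 702 and 466 counts in Indirubin, and with Indirubin-1 alone its value against DSS was 0.13. Between Indirubin and Control, 3 of 9 were lower (Reln, Colec11 and Lrat) and 1 higher (Rgs5), beside 6.38% and 7.45% of all genes. With Indirubin-1 alone the values of these genes were smaller in size, at -0.76, -0.80, -0.75 and -0.08. Ecm1 moved from -0.77 to -1.19 and Des from 1.43 to -1.76. The stellate sum was 100 CPM in Indirubin-1, 171 in Indirubin-2 and 156 in Indirubin-3. Myofibroblast markers, which denote activated stellate cells, summed to 5.11 to 9.69 CPM in Control and 3.54 to 5.22 in DSS. In Indirubin-1, Indirubin-2 and Indirubin-3 the sums were 5.51, 14.5 and 13.05. Single genes weighed in the higher sums, as Postn had 112 counts in Indirubin-2 and Acta2 108 in Indirubin-3. Sums for 8 portal fibroblast markers were 9.26 to 13.9, 4.15 to 9.57 and 6.79 to 23.4, and those for 7 sinusoidal endothelial markers 32.4 to 61.1, 23.6 to 41.9 and 46.6 to 68.1. The summed markers of sinusoidal endothelium, a source of type IV collagen, were thus higher in every Indirubin library than in every DSS library. All 7 single markers were above 0 (56.8% of all genes). Of them 3 were higher without overlap (10.5% of all genes) and 1 at an unadjusted p under 0.05 (4.45%). With Indirubin-1 alone Lyve1 turned to -0.38. Macrophage markers summed to 48.7 to 97.1 and 67.2 to 83.6 CPM in Control and DSS, and to 74.2, 111 and 129 in the Indirubin libraries. Marco, a scavenger receptor of Kupffer cells, rose against Control in DSS (2.43 ± 0.50, adjusted p = 0.0443 by edgeR) and in Indirubin (3.82 ± 0.68, adjusted p = 0.0468). With Indirubin-1 alone the latter value was 1.66. Vsig4 stood at 1.08 for Indirubin against Control and at 1.25 with Indirubin-1 alone. Marco had 47 counts in Indirubin-1, 380 in Indirubin-2 and 833 in Indirubin-3. Of the 7 macrophage markers, 5 were above 0 for DSS against Control and 4 for Indirubin against Control, with medians of 0.06 and 0.32. At an unadjusted p under 0.05, 1 was higher in DSS (3.48% of all genes), 2 were higher in Indirubin (7.45%) and 0 were lower in either. For Indirubin against DSS 4 were above 0, with a median of 0.12. At that threshold 2 were higher (4.45% of all genes) and 0 lower. Of the 6 hepatocyte markers, 3 were lower at an unadjusted p under 0.05 in Indirubin than in DSS and 4 than in Control (3.22% and 6.38% of all genes), with medians of -1.02 and -1.26. With Indirubin-1 alone those 3 (Serpina1c, Ttr and Apoc3) stood at -0.84, -0.55 and -0.68 against DSS and missed the threshold, Ttr missed it against Control (-0.83), and Fgb moved from -0.28 to -1.84 against DSS and passed it. For DSS against Control 1 was higher, the acute-phase gene Fgb (1.40 ± 0.38; 3.48% of all genes), and 0 lower. Cholangiocyte markers reached at most 5.70 CPM in any library, mesothelial markers 1.38, islet markers 2.70 and intestinal epithelial markers 6.62. The part of these markers in the collagen values was not tested.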

How the data were processed

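Liver RNA of 9 mice (400 ng per library, DNBSEQ) was sequenced, and the authors deposited a table of raw read counts per gene, annotated on GRCm39 per the submitters' processing notes; the aligner and counter are not given in the sources used here. The deposited FPKM columns, and the fold changes and p-values of the authors' own comparisons, were not used. Members and gene lists were chosen with earlier results of these data known. Groups followed the labels. Genes were filtered in each comparison of 6 libraries with filterByExpr (minimum count 10, minimum total 15), scaled by TMM and tested with edgeR 4.0.16 (quasi-likelihood, Benjamini-Hochberg) in R 4.3.3; standard errors are the size of the log2 fold change divided by the square root of F. Levels are CPM after TMM over all 9 libraries. Code was tested on simulated data. Counts are given for each tested collagen gene, and other collagen genes are named where every library of a group exceeded 3 counts or a library reached 20; further names in the text were chosen after their values were seen. Of each list, up to 2 genes with the smallest unadjusted p in each direction of each comparison could be named. The lists covered collagen synthesis, breakdown and receptors, matrix partners, the TGF-beta axis and markers of hepatocytes, stellate cells, myofibroblasts, portal fibroblasts, sinusoidal endothelium, cholangiocytes, macrophages, mesothelium, pancreatic acini and islets, and intestinal epithelium. Alternatives were DESeq2 1.42.0 (Wald test and size factors), library size alone, other filters, all 9 libraries in 1 fit, no mitochondrial genes, a replicate block and leaving out each library. Promoters were RefSeq windows of GRCm38.p6. Figures used Python 3.11.15 and matplotlib 3.10.9.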

Additional observations from a re-analysis of the deposited data

How the results depend on the processing

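Each group had 3 mice, and the 44 collagen genes together had 12273 counts. With library size alone the median of all genes was 0.70, 1.10 and 0.43 for DSS against Control, Indirubin against Control and Indirubin against DSS, beside 0.01, 0.13 and 0.15 with TMM; the cause of changed values below was not tested.

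For Indirubin against DSS, the median of the tested collagen genes (1.14) was 1.79 with library size alone and 1.53 without a filter. It was 0.57 without mitochondrial genes and 0.65 to 0.99 with 1 library left out. In the latter fits 3 to 5 genes were higher. Of all 9851 to 11067 genes, 482 to 1122 had an unadjusted p under 0.05 there, in either direction. Without Indirubin-2 and Indirubin-3, an alternative chosen after seeing the data, the median was 1.06 over 19 tested collagen genes and Col6a2 turned to -2.18. Col5a2 turned to 0.37 (library size) and Col3a1 to -0.052 (no filter). With 1 library left out, Col5a2 ran from -0.76 to 0.35, Col3a1 from -0.27 to 0.40, Col15a1 from -0.47 to 6.62 and Col14a1 from -0.13 to 0.71.

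For DSS against Control, library size alone left 2 genes lower with a median of -0.73, and Col18a1 and Col5a2 turned to 0.16 and 0.37. Of all 7482 genes, 916 had an unadjusted p under 0.05 in that fit, in either direction. The DESeq2 Wald test gave 2 genes at an adjusted p under 0.05, beside 143 of 7482 genes. A minimum of 10 counts in every sample gave 1 of 7 (Col27a1), beside 84 of 3327 genes. With 1 library left out, 4 to 8 genes were lower, the median ran from -1.48 to -1.19 and Col5a2 from -0.75 to 0.27. Of all 7918 to 8783 genes, 429 to 619 then had an unadjusted p under 0.05, in either direction.

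For Indirubin against Control, library size alone gave 2 genes higher, 1 lower and a median of 0.63. Of all 8059 genes, 2222 had an unadjusted p under 0.05 in that fit, in either direction. Col18a1 was then 0.63, Col4a1 0.80, Col3a1 0.050, Col1a2 0.79, Col6a2 1.12, Col5a3 0.060, Col5a2 0.74 and Col6a3 0.36. The DESeq2 Wald test gave 1 gene at an adjusted p under 0.05, beside 316 of 8059 genes. Without a filter 1 gene was lower, 1 passed the adjusted threshold and the median was 0.28 (0.92 for all genes). Of all 22767 genes, 1966 then had an unadjusted p under 0.05, in either direction, and 379 passed the adjusted threshold. With 10 counts in every sample 1 was lower, where 689 of 3602 genes had such an unadjusted p. Leaving out 1 library gave 0 to 1 higher, 1 to 3 lower and 0 to 1 at the adjusted threshold. Of all 8719 to 10091 genes, 845 to 1700 had an unadjusted p under 0.05 in these fits, in either direction. From 1 to 465 passed the adjusted threshold. Values ran from -0.40 to 0.66 for Col1a1, -0.79 to 0.33 for Col6a2 and -1.03 to 0.28 for Col6a3. They ran from -0.45 to 0.14 for Col4a1 and -0.27 to 1.08 for Col6a1. Without Indirubin-2 and Indirubin-3, Col4a1 was 0.24, Col1a1 -0.48 and Col6a3 0.16.

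The labels give no pairing of mice by replicate number. Correlations of same-numbered libraries, taken over gene deviations from the group means, ran from -0.03 to 0.04. They do not test for a batch of another kind. With the replicate block, 6 genes were lower for DSS against Control (median -1.53) and 3 lower for Indirubin against Control (median -0.46). For Indirubin against DSS 3 were higher (median 1.54), and Col5a2 turned to 0.65. In that order, 467 of 7482, 1033 of 8059 and 682 of 9117 genes had an unadjusted p under 0.05, in either direction.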
